A study of Homo sapiens with 3 samples.

Results

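Gene deserts are long stretches of the genome without protein-coding genes, and 6388 accessible regions of human NGN2 neurons lay in them. A region was a member when its midpoint was outside every protein-coding gene and more than 200 kb from every protein-coding gene end of the RefSeq annotation of GRCh38. Members made up 10.1% of the 63544 distinct accessible regions on the 22 autosomes, and the whole list held 65234 distinct regions. A desert here is the stretch between 2 neighbouring coding genes in which a midpoint can meet this rule, and its core is that stretch without the 200 kb next to each gene. The autosomes held 807 such deserts, and 687 of them contained at least 1 accessible region.

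Accessible chromatin was mapped by ATAC-seq, in which Tn5 transposase inserts adapters into open DNA. The cells were neurons of the established human induced pluripotent stem cell line KOLF2.1J carrying human NGN2, a proneural transcription factor, and were taken at day 14 of differentiation. All 3 biological replicates belonged to 1 group without an untreated or undifferentiated control, and came from 1 cell line. The authors combined them into a single list with no value per replicate, so values below have no standard deviation between replicates, differences between places in the genome were not tested over samples, and intervals cover counting error only.

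Gene deserts are best known as the surroundings of developmental regulators. The few genes that border them often encode transcription factors or cell surface proteins, and enhancers of such genes can lie far out in the desert and reach the promoter through chromatin looping. Other deserts hold few conserved elements, or lie beside centromeres where the sequence is repetitive. Long non-coding RNA genes, pseudogenes and immunoglobulin segments do occur inside deserts, because the definition counts protein-coding genes only.

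The strongest members that covered a start of the RefSeq promoter table, which here were all starts of long non-coding RNA genes, give examples of promoters in deserts. They were picked for high fold enrichment and need not be typical of accessible desert starts. Printed here are 5 of the 6 highest by fold enrichment, leaving out ANKRD20A4-ANKRD20A20P of a family with close copies, each as the 300 bases that RefSeq gives around the start in GRCh38, on the strand of the gene and 5′ to 3′, with 250 bases before the start and 50 after it. LINC02226 starts on the minus strand (chr5:8457515-8457814), between MTRR and SEMA5A. LOC101926968 starts on the plus strand (chr3:118641518-118641817), between LSAMP and IGSF11. LINC03000 starts on the plus strand (chr5:164296455-164296754), between MAT2B and TENM2. LOC107987280 on the minus strand (chr20:30580054-30580353) and LOC102723636 on the plus strand (chr20:30537357-30537656) lie within 2 Mb of the stretch without genes at the centromere of chromosome 20. All 5 genes are long non-coding RNA genes, and all 5 members are outside coding genes by definition. Capitals mark the words TTCCCAGAA and ACAATG, searched on both strands.
LINC02226: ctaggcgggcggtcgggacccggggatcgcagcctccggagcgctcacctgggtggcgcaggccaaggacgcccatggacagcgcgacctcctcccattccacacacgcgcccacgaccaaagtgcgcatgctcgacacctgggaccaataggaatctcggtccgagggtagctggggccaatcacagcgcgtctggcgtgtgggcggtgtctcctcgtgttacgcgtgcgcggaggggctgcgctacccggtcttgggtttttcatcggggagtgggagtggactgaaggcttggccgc
LOC101926968: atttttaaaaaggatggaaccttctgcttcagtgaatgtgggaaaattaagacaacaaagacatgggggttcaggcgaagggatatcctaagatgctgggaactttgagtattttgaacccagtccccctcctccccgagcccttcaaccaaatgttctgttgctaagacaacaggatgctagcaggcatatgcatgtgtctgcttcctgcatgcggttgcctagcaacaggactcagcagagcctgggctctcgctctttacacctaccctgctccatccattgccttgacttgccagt
LINC03000: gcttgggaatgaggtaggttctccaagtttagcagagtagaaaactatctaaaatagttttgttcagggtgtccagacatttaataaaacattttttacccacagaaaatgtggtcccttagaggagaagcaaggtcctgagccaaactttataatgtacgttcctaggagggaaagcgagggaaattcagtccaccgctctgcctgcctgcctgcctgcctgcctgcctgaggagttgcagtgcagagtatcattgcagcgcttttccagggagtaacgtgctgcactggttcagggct
LOC107987280: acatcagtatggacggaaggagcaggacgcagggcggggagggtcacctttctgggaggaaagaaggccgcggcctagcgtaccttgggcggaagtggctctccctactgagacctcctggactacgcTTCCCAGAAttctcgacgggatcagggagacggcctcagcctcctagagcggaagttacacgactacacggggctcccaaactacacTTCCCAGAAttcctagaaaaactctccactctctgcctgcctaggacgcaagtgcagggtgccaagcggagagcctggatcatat
LOC102723636: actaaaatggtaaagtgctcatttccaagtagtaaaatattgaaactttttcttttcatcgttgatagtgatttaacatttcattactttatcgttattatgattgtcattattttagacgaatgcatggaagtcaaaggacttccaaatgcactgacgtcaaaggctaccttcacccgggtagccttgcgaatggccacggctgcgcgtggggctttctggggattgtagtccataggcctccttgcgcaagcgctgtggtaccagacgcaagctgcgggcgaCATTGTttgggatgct
LOC107987280 holds TTCCCAGAA at 2 places, and LOC102723636 holds ACAATG once as its reverse complement. TTCCCAGAA was chosen after these sequences had been read, and ACAATG is a word known for binding by SOX proteins. The other 3 windows hold neither of these words. None of the 5 windows holds CAGATG or CAGCTG, which are E-boxes, the AP-1 word TGACTCA or the octamer word ATGCAAAT, searched in the same way. A match is a description of the letters and not of a bound site.

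Accessible regions became sparser with distance from coding genes, and the decline continued inside the deserts. Sequence 1 to 10 kb from a coding gene held 24.3 regions per Mb, and sequence 100 to 200 kb away held 17.8 (exact Poisson 95% interval 17.3 to 18.4). Within deserts the density was 15.6 regions per Mb at 200 to 300 kb (14.9 to 16.3), 13.6 at 300 to 500 kb and 10.5 at 500 to 1000 kb. It was lowest beyond 1000 kb, at 6.81 per Mb (6.20 to 7.45), so that each step outward lay below the one before it by more than the counting error.

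**Figure D1:**
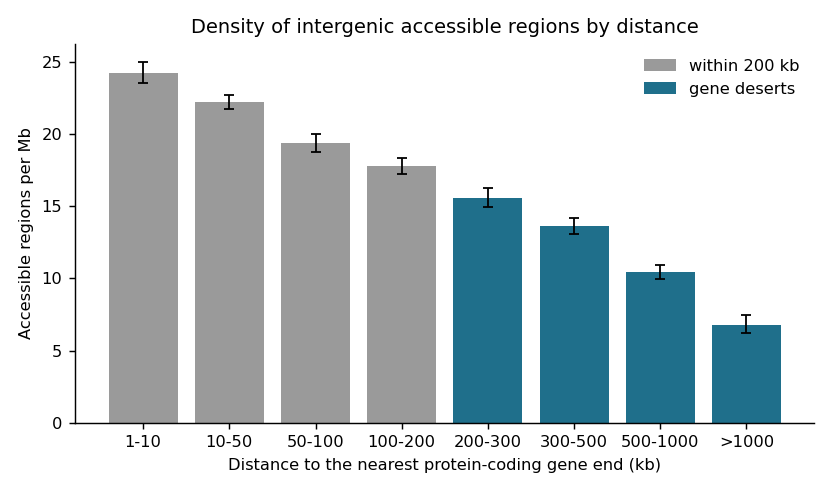
Accessible regions per Mb of intergenic autosomal sequence (vertical axis) in classes of distance to the nearest protein-coding gene end in kb (horizontal axis), with exact Poisson 95% intervals. Density falls from 24.3 per Mb at 1 to 10 kb to 6.81 per Mb beyond 1000 kb, and the blue bars are the deserts.

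These densities leave out, on each autosome, only the longest stretch with no annotated gene at all. This stretch spans the centromere or a short arm and contains sequence that could not be placed or sequenced. Such stretches took up 157.3 of the 679.6 Mb of desert core. Deserts as a whole held 12.2 regions per Mb without them (11.9 to 12.5) and 9.40 with them, against 26.1 in the remaining autosomal sequence. Deserts were the sparser part on 22 of 22 autosomes, and the ratio of the 2 densities averaged 0.462 ± 0.0816 (SD over autosomes, n = 22) without these stretches. With them the ratio averaged 0.346 ± 0.127. Where the stretch left out lies on a short arm, centromeric sequence can remain in the densities. Without these stretches, desert density was lowest on chromosomes 21 and 22, at 6.41 and 7.03 members per Mb. The part of remaining centromeric sequence in these values was not tested.

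Where a desert region was accessible, its enrichment over the local background was much like that of intergenic regions closer to genes, but fewer tags stood behind it. Fold enrichment, the authors' ratio of tags to local background at the summit, had a median of 5.16 in members, with quartiles of 4.04 and 6.95 and a range of 1.84 to 22.5. The median was 5.23 in the 20020 regions lying 1 to 200 kb outside coding genes, 5.08 in the 24883 regions inside genes and 9.74 in the 12253 regions within 1 kb of a gene end. Desert regions thus sat beside the other distal regions in fold enrichment and far below regions at gene ends. Against intergenic regions closer to genes the difference of medians was -0.02 on the log2 scale, negative on 15 of 22 autosomes, with a mean of -0.03 ± 0.11 (SD over autosomes, n = 22). That difference is smaller than the spread between autosomes.

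The tag count at the summit, worked out from the ratio and p-value of each summit, had a median of 173 in members and 210 in intergenic regions closer to genes. This difference of -0.28 on the log2 scale was negative on 21 of 22 autosomes and averaged -0.28 ± 0.13. The local background was lower too, with medians of 30.9 and 37.5 tags, and on 22 of 22 autosomes. The lowest background the list contains is 29.2 tags, a floor at which 41.5% of members sat (Wilson 95% interval 40.3 to 42.7%), against 19.8% of intergenic regions closer to genes. Fold enrichment in deserts is therefore measured against the floor more often than elsewhere. Counting error was 13.1% of the value at the weakest member, with 58 tags, 7.60% at the median and 2.06% at the strongest, with 2365 tags.

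**Figure D2:**
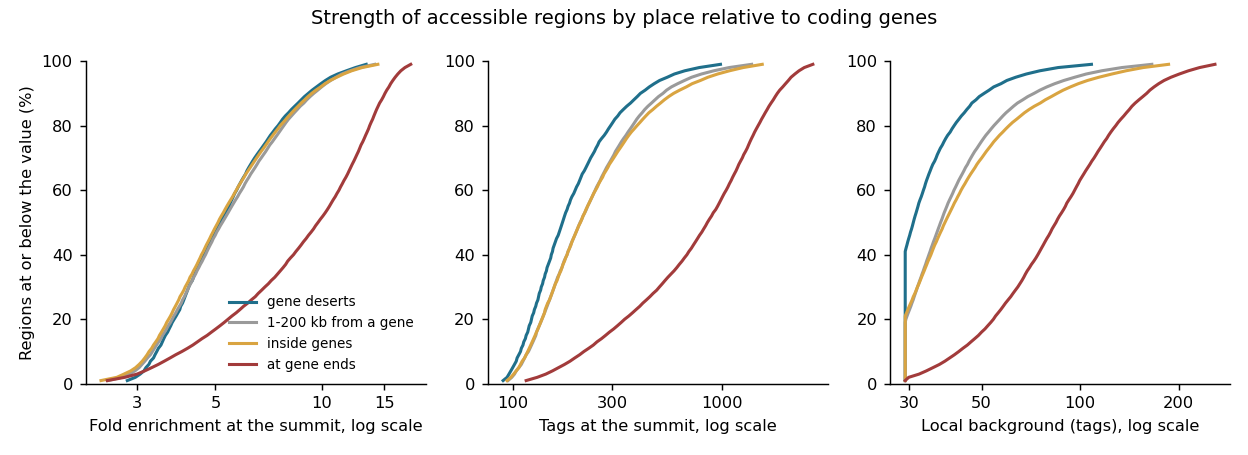
Share of regions in percent (vertical axis) at or below each value of fold enrichment, tag count and local background (horizontal axes, log scale), for 4 places relative to coding genes. The desert curve overlies the other distal curves for fold enrichment (median 5.16 against 5.23 and 5.08) but lies to their left for tags (173 against 210 and 211) and background (30.9 against 37.5 and 38.6).

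Desert regions were about as wide as other distal regions, and lay farther from their neighbours than intergenic regions closer to genes. Their width had a median of 785 bp, and together they covered 5.29 Mb. The median was 814 bp in intergenic regions closer to genes, 805 bp inside genes and 1284 bp at gene ends. A single summit was recorded in 40.8% of members and in 37.3% of the intergenic regions closer to genes. The nearest accessible region of any kind lay at a median of 21.7 kb from a member, compared with 12.0 kb closer to genes. Another region lay within 10 kb of 29.8% of members (28.7 to 30.9%) but of 43.7% of intergenic regions closer to genes (43.0 to 44.4%). No other region was found within 100 kb for 8.16% of members, against 1.44%. Of all members, 4505 (70.5%) had no other member within 10 kb, and 487 fell into 145 runs of at least 3 neighbours.

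The longest run away from centromeres lay in the desert between ATP11B and SOX2, a transcription factor of neural progenitors and pluripotent cells. It held 6 regions within 27.0 kb (chr3:182490292-182517310), with fold enrichments of 3.15 to 7.03. The nearest coding gene, 277 to 303 kb away, was ATP11B, and SOX2 was farther off. A run of 5 regions within 8.33 kb lay between MMS22L and POU3F2 (chr6:98036402-98044735), more than 752 kb from either gene. POU3F2 encodes the neural POU factor BRN2, which is used with other factors to turn fibroblasts into neurons. Another run of 5 lay between ZIC1 and AGTR1 (chr3:147930167-147941108), with fold enrichments of 2.21 to 7.35. ZIC1 is a zinc finger factor of the dorsal neural tube and cerebellum. A longer run, of 9 regions within 12.7 kb (chr2:89827889-89840594), lay between RPIA and LOC124905368, 2.21 Mb from the stretch without genes at the centromere of chromosome 2.

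The members were spread unevenly over the deserts. Among the 500 cores of at least 250 kb, 473 held a member, and their density had a median of 11.6 per Mb with quartiles of 7.70 and 17.2. The 10 densest deserts held 237 members in 5.72 Mb, which is 3.71% of the members in 0.841% of the core sequence. Members per desert reached 50, and 139 deserts held 50% of all members. Small cores were denser than large ones, with 15.8 members per Mb in cores of 250 to 500 kb, 12.1 in cores of 1 to 2 Mb and 7.98 in longer cores without the stretches that lack genes.

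The densest desert lay between ARHGEF28, a guanine nucleotide exchange factor, and ENC1, an actin-binding protein of the developing nervous system. It held 16 members in a core of 0.285 Mb, or 56.1 per Mb (exact Poisson 95% interval 32.0 to 91.0). Their fold enrichments ran from 3.02 to 10.4, and 13 of the 16 had another member within 10 kb. The strongest (chr5:74206193-74207353) had 490 tags and lay 265 kb from ARHGEF28. The interval of this desert overlaps those of the other 9 among the densest, so the order within the 10 is not resolved by counting.

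CHST9 to CDH2 came next by density, with 16 members and 46.0 per Mb (26.3 to 74.8). CDH2 encodes N-cadherin, the cadherin of neural tissue, and the strongest member (chr18:27605038-27605846, fold enrichment 10.4) lay 327 kb from it. The desert between TRIQK and CIBAR1 on chromosome 8 had 13 members and 46.0 per Mb, of which 3 lay within 1 kb of a long non-coding RNA gene end. A member there reached 990 tags, although its fold enrichment was 9.99. SULF2, which trims heparan sulfate at the cell surface, and PREX1, an activator of Rac, border a desert with 19 members and 43.4 per Mb. No member there exceeded a fold enrichment of 8.74, the lowest maximum of the 10.

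CRYBA4, a lens crystallin gene, and MN1, a transcriptional regulator, border 31 members at 43.2 per Mb (29.4 to 61.3). The strongest (chr22:27494493-27495414) had 601 tags and lay 253 kb from MN1, whereas the first listed start of CRYBA4 was not accessible. The desert between the zinc finger gene ZNF608 and GRAMD2B combined density with size: its 48 members, at 39.6 per Mb (29.2 to 52.5), were the second highest number of any desert. Its median fold enrichment of 6.07 exceeded the median of all members, and its strongest member (chr5:125317053-125318101, fold enrichment 13.6, 504 tags) lay 569 kb from ZNF608. Both flanking genes start on the side of this desert, and both starts were accessible.

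GOLIM4 to MECOM held 23 members at 39.1 per Mb, none at the end of a long non-coding RNA gene. MECOM encodes the zinc finger factor EVI1, and the strongest member (chr3:168531093-168531806, fold enrichment 11.3) lay far from it, 436 kb from GOLIM4. CADM1, a synaptic adhesion molecule of the immunoglobulin family, borders 33 members at 39.1 per Mb. Their strongest (chr11:116533167-116534457, 654 tags) lay at the other side of the desert, 214 kb from BUD13. SOX11, an HMG-box factor of newborn neurons, borders 28 members at 37.9 per Mb (25.2 to 54.7). The strongest by fold enrichment (chr2:6639839-6640939, 11.6) lay 200.2 kb from CMPK2, just beyond the distance limit, and another (chr2:6448737-6450103) had more tags, 880. C11orf87 to ZC3H12C, with 10 members at 37.8 per Mb, contained 1 strong member (chr11:109643660-109644710, fold enrichment 13.3, 785 tags) and a median of 4.98.

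**Figure D3:**
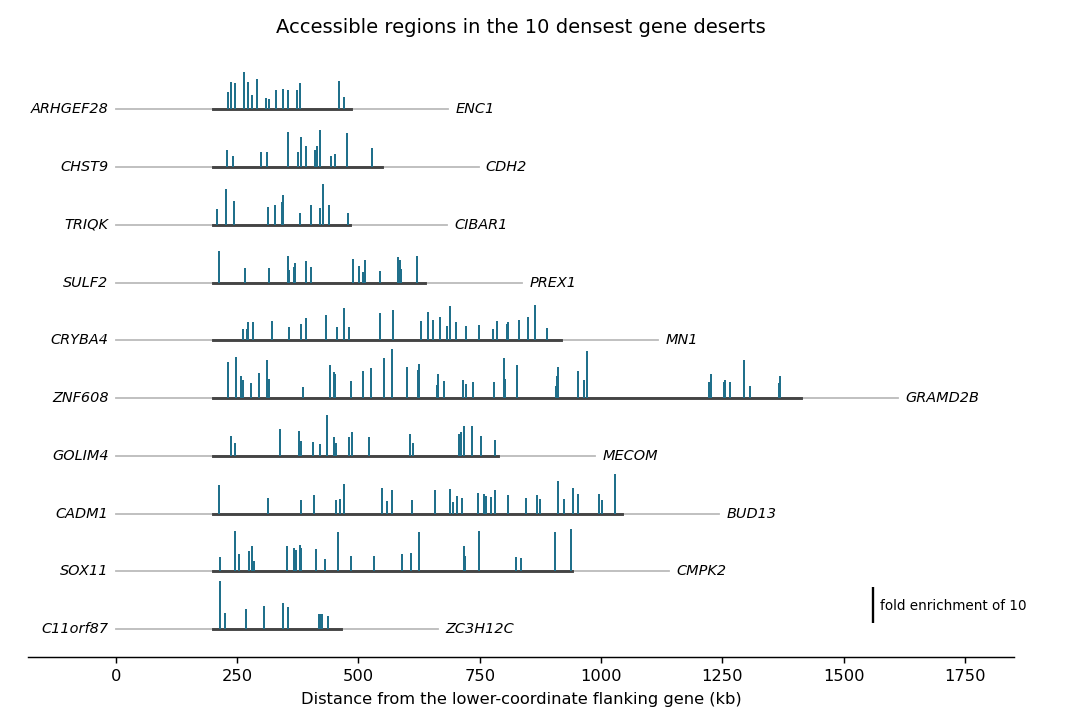
Position of each member (vertical line, height proportional to fold enrichment, scale bar of 10) in the 10 densest deserts, as distance in kb from the flanking gene at the lower coordinate (horizontal axis). Dark lines are the cores, and regions within 200 kb of a gene are not members and are not drawn. Members spread over most of each core, and the ZNF608 desert is the longest of the 10, with 48 members.

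The deserts with most members were mostly longer ones. MAT2B to TENM2 held 50 members in a core of 3.06 Mb, or 16.3 per Mb (12.1 to 21.5), and TENM2 encodes a teneurin, a transmembrane protein of synaptic partner choice. Its fold enrichments ran from 2.36 to 14.7, and the strongest member (chr5:164296243-164297271, 1024 tags) covers the start of LINC03000, 777 kb from MAT2B. TENM2 faces the desert, and its first listed start, the only one checked, was not accessible. ARRDC3 to NR2F1 held 46 members at 25.6 per Mb, and NR2F1 encodes COUP-TFI, a nuclear receptor of cortical area patterning. Its strongest member (chr5:92560469-92561681, fold enrichment 13.4, 1024 tags) lay near the middle, 1022 kb from NR2F1.

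LOC105372073 to PIK3C3 on chromosome 18 held 45 members, but over 3.78 Mb, so that they were 11.9 per Mb and only 9 had another member within 10 kb. The gap between neighbours had a median of 56.6 kb there and 15.6 kb in the ZNF608 desert. LSAMP to IGSF11, between 2 immunoglobulin superfamily adhesion genes, held 44 members at 21.4 per Mb, and 6 of them lay at long non-coding RNA gene ends. The strongest (chr3:118641061-118642113, fold enrichment 16.1, 1189 tags) covers the start of LOC101926968 printed above, 259 kb from IGSF11.

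**Figure D4:**
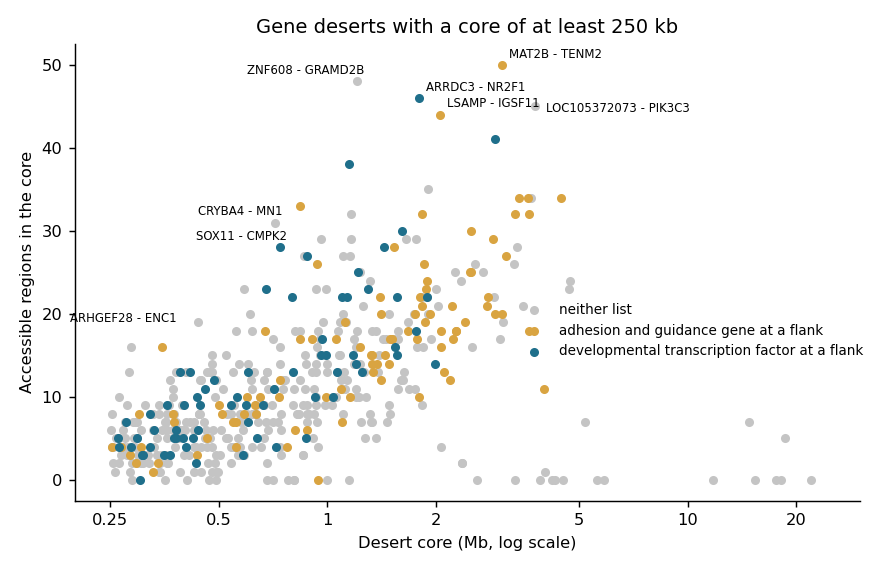
Number of members (vertical axis) against core length in Mb (horizontal axis, log scale) for the 500 deserts with a core of at least 250 kb, coloured by the list of the flanking genes. MAT2B to TENM2 has the most members, 50, while ZNF608 to GRAMD2B reaches 48 in a core of 1.21 Mb, and the longest cores hold few members or none.

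Deserts with a developmental transcription factor at a flank had more members per Mb than deserts in general, while those with a neuronal adhesion or guidance gene had a lower median. Of the 189 listed factors and 133 listed adhesion genes, at least 1 factor bordered 69 cores and at least 1 adhesion gene bordered 93. The median was 15.1 members per Mb beside factors, with 50 of 69 above the median of all 500, and 10.5 beside adhesion genes, with 37 of 93 above it. Cores next to neither list had a median of 11.2. With members and core length summed over deserts, stretches without genes included, the densities were 15.95 per Mb beside factors, 10.6 beside adhesion genes, 7.54 beside neither list and 8.93 over all 500, so adhesion deserts were below all deserts by the median and above them by the sum. Of those next to a factor 68 of 69 held a member, as did 92 of 93 next to an adhesion gene and 313 of 338 next to neither.

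Core length moved with these lists, with a median of 0.603 Mb beside factors and 1.40 Mb beside adhesion genes. Within cores of 250 to 500 kb the medians were alike, 15.1 beside factors (n = 29) and 15.2 beside neither list (n = 118). At 500 to 1000 kb they were 15.5 (n = 20) and 12.7 (n = 109), and at 1000 to 2000 kb 12.7 (n = 19) and 11.0 (n = 75). Adhesion deserts stood below those of neither list at 250 to 500 kb, with 13.1 (n = 13), and above them in the other 2 classes, with 14.0 (n = 22) and 11.3 (n = 31). Deserts are not replicates, and these differences carry no test.

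**Figure D5:**
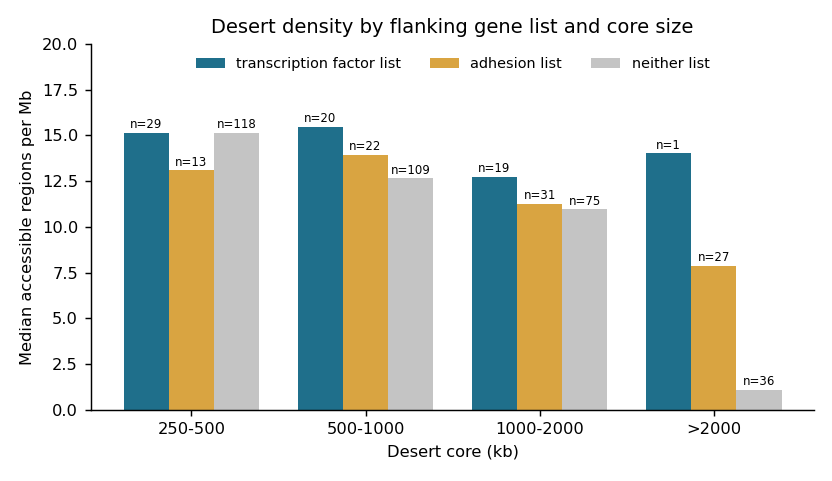
Median members per Mb (vertical axis) by core length in kb (horizontal axis) for deserts flanked by a listed developmental transcription factor, by a listed adhesion or guidance gene, or by neither, with the number of deserts above each bar. Factor deserts exceed the neither class at 500 to 1000 kb (15.5 against 12.7) but not at 250 to 500 kb (15.1 against 15.2), and 1 factor desert alone makes up the last bar of that list.

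Among factor deserts, SOX11 to CMPK2 was followed by SOX2 to ATP11B, with 23 members and 33.9 per Mb (21.5 to 50.8). POU3F1 to RRAGC had 13 members and 33.2 per Mb, and MMS22L to POU3F2 had 38 members and 33.0 per Mb (23.4 to 45.3), so that 2 neural POU factor genes stood side by side. HLX to DUSP10 reached 31.2 and ZIC1 to AGTR1, with 27 members, 30.6. At the other end, the core between SATB1 and KCNH8, of 0.303 Mb, held no member, which allows up to 9.90 per Mb at 3 counts. MEIS2 to TMCO5A held 2 members and RUNX1 to SETD4 held 3. RUNX1 is a factor of blood formation, whereas MEIS2 acts in the developing forebrain, so sparse factor deserts included one beside a neural gene.

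Adhesion deserts ran from CHST9 to CDH2 and CADM1 to BUD13, described above, down to DOK5 to CBLN4, where a core of 0.946 Mb held no member (up to 3.17 per Mb at 3 counts). PLXNA2 to CAMK1G, next to a semaphorin coreceptor gene, had 26 members at 27.7 per Mb. NCAM1 borders a desert of 8 members with the high median fold enrichment of 9.58 and a median of 448 tags. NCAM2, its paralog, borders a longer one with 18 members at 4.94 per Mb and a median of 4.98. CDH18 to CDH12, between 2 cadherin genes, held 4 members at 5.16 per Mb, although 1 of them reached a fold enrichment of 16.1.

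Accessible flanking promoters were less frequent beside the sparsest deserts than beside the others. The 500 cores were divided by density into 4 classes of 125, and a coding start counted as accessible when a region lay within 1 kb. Only the first listed start of each flanking gene was checked. In the sparsest class 119 of 193 flanking starts were accessible (61.7%, Wilson interval 54.6 to 68.2%), compared with 167 of 196 in the densest (85.2%, 79.6 to 89.5%). The classes in between had 80.3% (74.2 to 85.2%) and 81.1% (74.9 to 86.0%), with intervals that overlapped that of the densest. All 15100 coding starts listed had 71.5%. Densities here include stretches without genes. The sparsest class held the 27 cores without a member, and the longest of these spanned centromeres or short arms. The sparsest class contained 6 factor deserts and the densest 27, while adhesion deserts numbered 20 and 13. The share of flanking genes that start on the side of the desert was 48.2% in the sparsest and 52.0% in the densest class, within the counting error.

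Some members stood well above the median of regions at gene ends, 9.74. The highest fold enrichments belonged to a region between SPATA31A1 and FOXD4L6 (chr9:39791318-39791983, 22.5, 679 tags) and a region between ZNF337 and LOC124904970 (chr20:28602347-28603432, 20.7, 832 tags). Both lay within 3.35 Mb of a stretch without genes, and both had a pseudogene within 9.10 kb. A region between CNTN3 and FRG2C (chr3:75434949-75435794, 18.2, 550 tags) came next, 0.257 kb from a pseudogene. Of the 10 highest by fold enrichment, 3 lay within 5 Mb of such a stretch and 6 within 100 kb of a pseudogene, compared with 5.31% and 41.1% of all members. Pseudogenes and sequence near centromeres often have near-identical copies, and how the authors placed reads with several matches is not given in the sources used here. Its part in these values was not tested.

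The other members among the 10 highest included neighbours of neural genes. A region between MYT1L, a zinc finger factor of neurons, and EIPR1 (chr2:2613227-2614089) had a fold enrichment of 17.9 and 859 tags, with no pseudogene within 868 kb. The desert between the cadherin genes CDH10 and CDH9 held one of 17.3 (chr5:26553085-26553624, 587 tags), and a region between DIPK2A and PLOD2 (chr3:145718945-145719666) also had 17.3, with 652 tags. The region over the starts of LINC02226 and MIR4458HG, which run in opposite directions (chr5:8457146-8458327), had 16.6 and 1567 tags. The list was completed by regions over the start of LOC102723636 (chr20:30537379-30538232, 16.5) and between CA10 and KIF2B (chr17:52775992-52776820, 16.4, 777 tags).

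Ranking by tags gave almost entirely other regions, since 1 region was in both lists. This was the member between LACC1 and SERP2 (chr13:44141356-44142755), with 2033 tags and a fold enrichment of 17.8. The most tags, 2365 (exact Poisson interval 2271 to 2462), lay between NPVF and NFE2L3 (chr7:25862066-25862938), where a second member (chr7:25856522-25857489) had 1688. A region between CCNH and TMEM161B (chr5:87944150-87945472) had 2038 tags. A region between TFAP2C and BMP7 (chr20:56924885-56926138), genes of an AP-2 transcription factor and of a bone morphogenetic protein, had 1906. Further members were near LOC124901498 (1774 and 1629 tags, in 2 regions on chromosome 6), between RPS24 and ZMIZ1 (1719), between SLC8A1 and PKDCC (1667) and near IRX2 (1637). None of these 10 lay within 5 Mb of a stretch without genes, and 2 had a pseudogene within 100 kb.

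The members farthest from any coding gene lay beside the stretch without genes that takes up most of the short arm of chromosome 22. The 5 farthest all lay on chromosome 22 (chr22:10741263-11067895), 4461 to 4786 kb from OR11H1 and within 0.381 Mb of the stretch without genes, with fold enrichments of 2.03 to 3.94. Away from such stretches, the farthest 4 lay between the protocadherin gene PCDH7 and ARAP2 on chromosome 4. There the most distant (chr4:33628252-33628892) was 2377 kb from ARAP2, at 6.81 in fold enrichment and 227 tags. The remaining 3, 2120 to 2291 kb away, had fold enrichments of 3.31 to 3.64. The next (chr18:39841007-39842738), 2067 kb from LOC105372073, was far stronger, with 11.4, 829 tags and 5 summits, and lay 0.164 kb from a long non-coding RNA gene end.

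A minority of members lay at non-coding transcripts. Within 1 kb of a long non-coding RNA gene end were 279 members (4.37%, Wilson interval 3.89 to 4.90%), against 8.58% of intergenic regions closer to coding genes. Inside a long non-coding RNA gene were 1917 (30.0%), against 25.2%. The share at gene ends fell with distance from coding genes, from 5.42% at 200 to 300 kb to 3.00% beyond 1000 kb. Members at these ends had a median fold enrichment of 5.82 and 209 tags, compared with 5.13 and 172 for the other members.

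Most long non-coding RNA genes of deserts had no accessible region at their start. Of 1517 such genes with a start in RefSeq inside a desert, 124 started within a member (8.17%, 6.90 to 9.66%), against 2970 of 9643 elsewhere on the autosomes (30.8%, 29.9 to 31.7%). Starts elsewhere include those at or beside coding gene ends, so this is not a comparison with intergenic starts only. The 300 bases around the 124 accessible starts had a median GC content of 46.2%, compared with 40.7% around the other 1393 desert starts and 50.0% over all long non-coding RNA promoters.

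Proneural factors such as NGN2 bind E-boxes, of which CAGATG and CAGCTG are common forms. CAGCTG was present in 31 of the 124 windows (25%, 18.2 to 33.3%), in 14.3% of the other desert starts (12.5 to 16.2%) and in 17.7% of all 27305 promoters. CAGATG was present in 15.3% (10.0 to 22.7%), 20.7% (18.7 to 23%) and 14.8%. CAGCTG was thus more frequent at accessible desert starts than at other desert starts. Its interval overlapped that of all long non-coding RNA promoters (17.8%, 17.1 to 18.5%). CAGATG was less frequent at accessible than at other desert starts, with overlapping intervals. Median GC content also differed between accessible and other desert starts (46.2% against 40.7%), and its part in the CAGCTG difference was not tested. ACAATG was found in 19.4% of the 124 windows (13.4 to 27.2%), in 21.8% of the other desert starts (19.7 to 24.1%), in 15.2% of all long non-coding RNA promoters and in 11.0% of all promoters, with overlapping intervals at accessible and other desert starts. TTCCCAGAA was found in 1 of the 124 windows (0.806%), in 1.44% of the other desert starts and in 1.09% of all promoters. These windows surround annotated starts, not the summits of members.

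Deserts without members were mostly short, and the longest of them spanned centromeres or short arms. The 120 deserts with no member had a median core of 64.4 kb, against 446 kb for the others. The 3 longest were LINC02798 to H3-7 (22.0 Mb), LOC124905466 to OR11H12 (18.1 Mb) and LOC112268044 to SPATA31A5 (17.6 Mb), of which 21.6, 15.5 and 17.6 Mb are the stretches without genes on chromosomes 1, 14 and 9. Among empty cores outside the longest stretch without genes of each autosome, TPTE to POTED on chromosome 21 (2.60 Mb) was the longest. The stretch left out on that chromosome ended at position 5010453, before this core (chr21:10805717-13409776). The core was therefore not checked for centromeric sequence and need not be an ordinary desert. The end of chromosome 14 beyond TMEM121 (1.15 Mb) came next. It contains 167 immunoglobulin segments and 93 pseudogenes, which are no protein-coding genes in the table, and its 3-count limit is 2.61 members per Mb. TMEM132B to LOC107984449 (0.998 Mb) followed, with a limit of 3.01 per Mb.

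The limit of 200 kb cuts through a continuous range of distances. The 3 members closest to it lay at 200.003, 200.004 and 200.029 kb, with fold enrichments of 3.77, 8.33 and 6.73. The 3 regions just short of it lay at 199.983, 199.97 and 199.893 kb, with 9.21, 4.53 and 4.00. Between 190 and 200 kb lay 244 regions with a median fold enrichment of 5.18 and 201 tags, and between 200 and 210 kb 261 with 5.00 and 175 tags.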

How the data were processed

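ATAC-seq of 3 biological replicates was deposited as 1 list whose name, per the labels, marks it as the optimal set by irreproducible discovery rate, which keeps peaks ranked alike between replicates. The build is hg38, per the submitters' processing notes. Aligner, peak caller and filters are not given in the sources used here. Each of 145092 deposited entries gives an interval, a summit offset, a score of up to 1000, a fold enrichment (a ratio) and −log10 p and q values, all computed by the authors.

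Entries with the same bounds were merged, keeping the summit with the highest −log10 p. Tag counts and backgrounds were recovered from fold enrichment and p-value under a Poisson tail with 1 added to both. The largest misfit was 0.00079 units of −log10 p, against a median of 0.266 for the next whole number. Depth per replicate is unknown. Positions are midpoints, counted from 1. Genes came from a RefSeq table of GRCh38.p14, and starts and strands from its promoter windows. For flanking genes only the first listed start was checked, so other starts of the same gene may differ. Motif words and GC content at summits were planned but not run, because no genome sequence was used here.

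Named are the flanks of the 10 densest deserts (cores of at least 250 kb, at least 5 members), of the 5 with most members and of the longest without; the 10 highest members by fold enrichment and by tags; the 5 farthest; and the strongest at long non-coding RNA ends. The densest and sparsest deserts of each list, neighbours in runs and the deserts of NCAM1, NCAM2 and PLXNA2 were named after their values were seen. Members, lists and alternatives were chosen with earlier results of these data known. Intervals are 95%, by Wilson's method for shares and exact Poisson for counts and densities, and a count of 0 allows 3. PCR tags are not independent molecules. Python 3.11.15 with numpy 2.4.6, pandas 2.3.3 and scipy 1.17.1 was used. Tag recovery was tested on 5000 simulated summits, of which 100% matched.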

Additional observations from a re-analysis of the deposited data

How the results depend on the processing

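Of 94 recomputed values of 8 results, 63 stayed close, 30 moved and 1 reversed. With limits of 100 and 500 kb there were 10269 and 2189 members in 1240 and 255 deserts, and the density ratio at 500 kb was 0.231. Members numbered 2688 above the median fold enrichment of all regions, 12343 when every summit entry was counted, and 729 in 225 deserts when long non-coding RNA genes were avoided too, where the density ratio was 0.125.

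The densest desert had 28.0 members per Mb above the median fold enrichment and 108.6 by entries, and remained ARHGEF28 to ENC1. It was LOC101927314 to LOC105377910 (36.7) with long non-coding RNA genes avoided, MAT2B to TENM2 (16.3) by number, KRR1 to PHLDA1, HS3ST3B1 to PMP22 and ZIC1 to AGTR1 at 100, 300 and 500 kb, and CRYBA4 to MN1 or ZNF608 to GRAMD2B with cores of at least 500 kb or 1 Mb. Of the 10 densest, 9 remained with a score of at least 830 and 4 in the stronger subset.

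Against intergenic regions closer to genes, fold enrichment differed by 0.073 (log2) by entries, a reversal, and tags by -0.28. Members at long non-coding RNA ends were 5.10%, 3.87% and 3.06% at 100, 300 and 500 kb, 5.54% above the median fold enrichment, 0% by construction with those genes avoided, and 2.90% and 6.75% with windows of 500 bp and 2 kb. The share with another member within 10 kb, 29.5%, became 31.0%, 27.4% and 24.1% at the 3 distances, 25.5% at a score of at least 830, 11.8% above the median fold enrichment and 23.6% with long non-coding RNA genes avoided. The median beside listed factors was 6.17 per Mb above the median fold enrichment and 31.1 by entries, and stayed above the median of all deserts in every setting run, although with long non-coding RNA genes avoided it rested on 1 desert.

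No paired analysis was possible because the list carries no value per replicate, and replicates could not be left out. Leaving out regions near the stretches without genes and shortening cores by them were alternatives chosen after seeing the data. Some genes in the table carry positions of other scaffolds, such as GSTT1 on chromosome 22, so flanks at the starts of acrocentric chromosomes are uncertain.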

Other observations

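A few members overlapped small RNA genes. A member over the tRNA gene TRE-TTC2-2 (chr15:26081894-26083132), 217 kb from ATP10A, had a fold enrichment of 15.2 and 1532 tags. On the short arm of chromosome 21, 2 members overlapped copies of the ribosomal RNA genes, RNA45SN2 (fold enrichment 5.76, 173 tags) and RNA45SN3 (5.29, 159 tags), and 2 others overlapped MIR6724-1 (9.03, 272 tags) and MIR6724-3 (9.13, 275 tags) beside them. The values of the paired copies lay close to each other, and reads of near-identical copies cannot be told apart. MIR663A (7.92, 292 tags) and MIR5011 (6.98, 210 tags) were the other microRNA genes overlapped. Immunoglobulin or T cell receptor segments occurred in 7 deserts, with 43 members in all.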
